A study of Mus musculus with 6 samples.

Results

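The genes of the DNA replication origin and fork machinery were read in 6 RNA-seq libraries of mouse megakaryocytic-erythroid progenitors (MEPs), marrow cells that give rise to platelet-producing megakaryocytes and to red cells. The group comprised 41 genes chosen by symbol, of 52459 in the deposited table, and all 41 had a row of their own and passed the filter on low counts. There were 3 libraries from Tmprss6-/- (KO) mice and 3 from wild-type (WT) mice, each a pool of cells from 3 mice, with no age, strain or treatment given in the labels and no other allele named. Tmprss6 encodes a liver protease that restrains hepcidin, and its loss starves the body of iron. The cells had been sorted as lineage-negative, cKit-positive and Sca-negative, without Fc gamma receptor, CD105 or CD41 and with CD150.

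DNA replication begins when the origin recognition complex, with Cdc6 and Cdt1, loads the MCM2-7 helicase onto DNA in G1 phase. At the start of S phase, kinases that include cyclin E with Cdk2 act, and Cdc45 and the GINS complex join MCM2-7 to form the active helicase. Polymerase alpha with primase then lays down primers, replication factor C loads the PCNA clamp, and polymerases epsilon and delta copy the strands. The flap nuclease Fen1 and the ligase Lig1 join lagging strand fragments, and chromatin assembly factor 1 places histones on the new DNA. Many of these genes are switched on by E2F transcription factors at the passage from G1 to S phase, and cycling blood progenitors express them at high levels.

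Total counts were 13402209 to 18105463 in the KO libraries and 13666585 to 22986837 in the WT libraries. A list of 10 MEP genes, with Gata1, Klf1, Kit and Epor among them, had counts in 10 of 10 genes in each library, and its summed level was 2255 to 3674 CPM (read counts scaled to the size of the library) in KO and 2130 to 4077 CPM in WT. Tmprss6 itself, a liver gene, gave 0, 5 and 0 counts in KO replicates 1 to 3 and 5, 4 and 0 counts in WT replicates 1 to 3, too few to check a label. KO replicate 2 stood apart. Its summed levels were 7264 CPM for 10 eosinophil, basophil and mast cell genes, 3401 CPM for 10 neutrophil precursor genes, 2674 CPM for 10 macrophage genes, 525 CPM for 10 B and plasma cell genes and 5220 CPM for 9 late erythroblast genes. Across the other KO libraries these sums were 41.8 to 235, 120 to 279, 125 to 277, 46.8 to 149 and 349 to 378 CPM. In WT they were 114 to 717, 83 to 378, 79.7 to 226, 27 to 68.5 and 139 to 228 CPM. Of the eosinophil, basophil and mast cell genes, Prg3, Epx, Ear1, Mcpt8 and Il5ra were at 0 in KO replicate 3. Results below are therefore also given for the libraries numbered 1 and 3 alone, compared within their numbers, a comparison chosen with earlier results of these data known. That comparison was not free of differences in these lists. At an adjusted p under 0.05 edgeR called 4 late erythroblast genes and 1 B and plasma cell gene higher in KO there (0.258% of all genes). It called 5 eosinophil, basophil and mast cell genes and 2 neutrophil precursor genes lower (0.604%), and 0 macrophage genes either way. What these transcripts contributed to the replication genes was not tested.

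Most replication genes were higher in KO than in WT, by a small amount, and the cyclin gene Ccne1 was the member that passed a test, in pairs 1 and 3. Over the 6 libraries 38 of 41 had a log2 fold change above 0, where 49.3% of the 13453 genes tested did. Genes are not independent of one another, so that count is given as a description. It also depended on single libraries. The count was 26 without KO 1 and 29 without WT 3, and 20 members changed direction in at least 1 alternative. The median member stood at a log2 fold change of 0.21, a 1.16-fold difference, and the members ran from -0.14 to 0.91. The median over all genes tested was 0.00. The 41 levels summed to 9483, 8786 and 10603 CPM in KO replicates 1 to 3 and to 8374, 7465 and 8694 CPM in WT replicates 1 to 3. These sums did not overlap between the genotypes, but only narrowly and only with library sizes scaled by TMM. As a share of unscaled library totals the genotypes overlapped, with KO 1 at 0.857% below WT 3 at 0.894%. The lowest KO sum, 8786 CPM in KO 2 with its transcripts of other blood cells, lay just above the 8694 CPM of WT 3. The 6 MCM2-7 genes made up 3918 CPM of the KO 2 sum and 4469 CPM of the WT 3 sum. In bulk libraries, more cells of a type and more RNA per cell cannot be told apart.

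Libraries were also compared within replicate numbers (KO 1 with WT 1 and so on). Deviations of same-numbered libraries from their group means correlated over the 41 genes at 0.93 for number 1, -0.023 for number 2 and 0.95 for number 3, so number 2 showed no pairing in these genes. KO was the higher library for 34, 29 and 40 of the 41 genes in pairs 1, 2 and 3. Among all genes tested KO was higher for 48.2%, 49.9% and 48.9%. The median differences in log2 CPM were 0.16, 0.22 and 0.32. KO was higher in 3 of 3 pairs for 25 members, against 11.5% of all genes tested, and lower in 3 of 3 pairs for 0 members, against 13.3%. Pairs 1 and 3 both had KO higher for 34 members (28.3% of 13572 genes) and both had KO lower for 1 member, Rfc1 (30.6%). The library in which a gene was highest was KO 1 for 17 members and KO 3 for 17, against 20.7% and 13.5% of all genes. KO 2, the library with transcripts of other blood cells, was highest for 3 members, against 23% of all genes. A WT library was highest for 3, 0 and 1 members (WT 1, 2 and 3), against 15.1%, 6.6% and 21.1% of all genes.

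**Figure D1:**
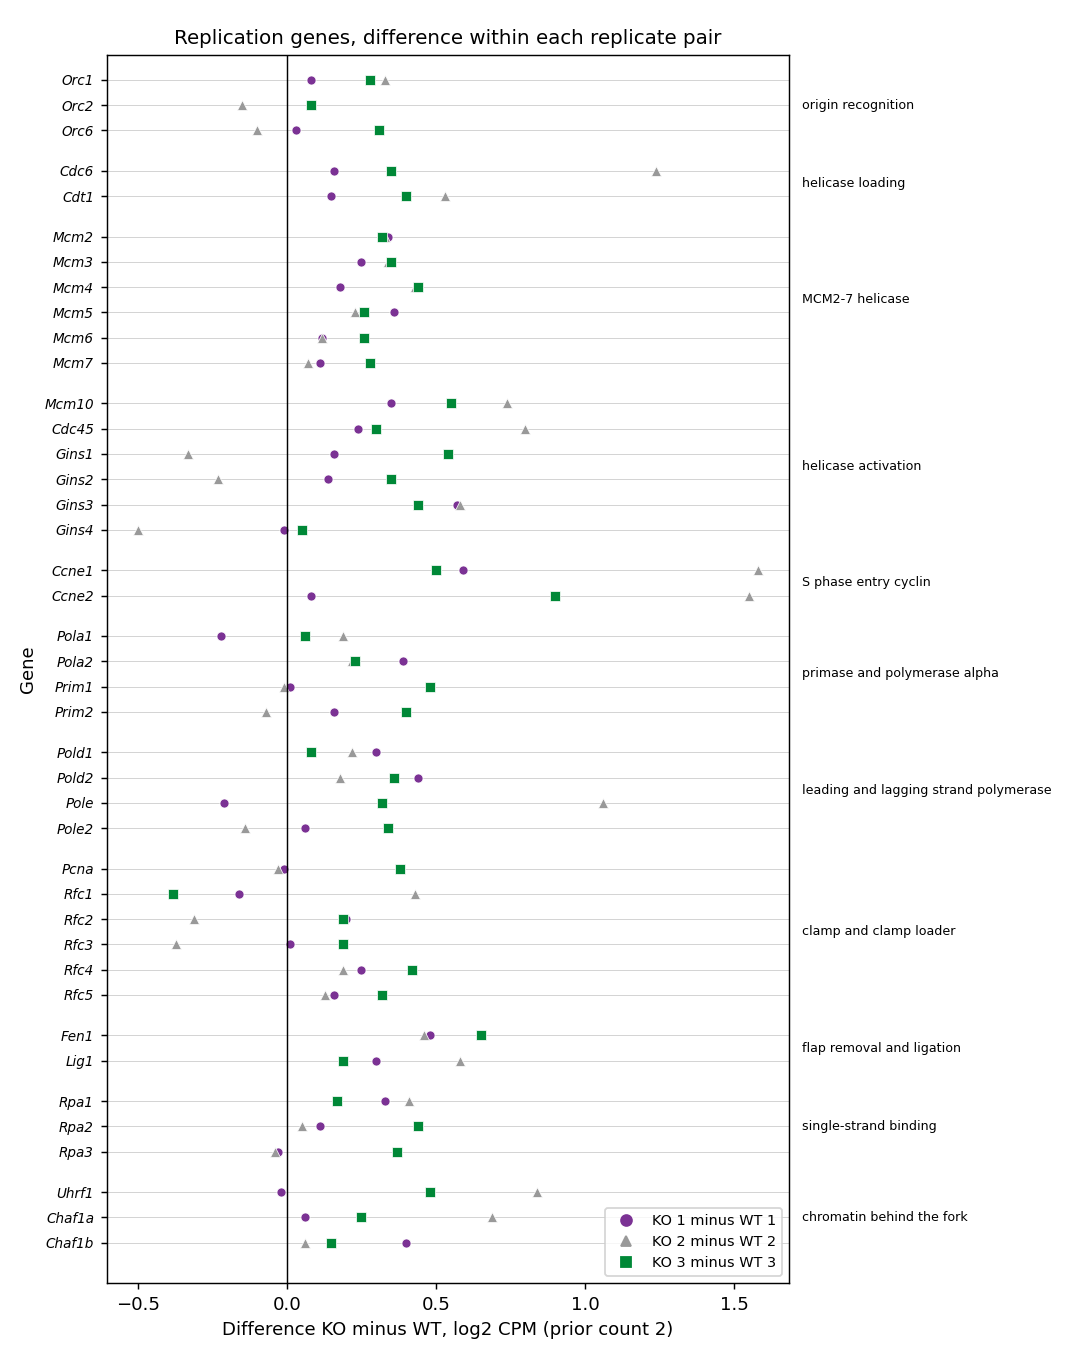
Difference in log2 CPM (KO minus WT, prior count 2) within replicate pairs 1, 2 and 3 for each of the 41 genes, arranged by role. Points to the right of the vertical line are higher in KO, and pair 2 (grey triangles) is spread more widely than pairs 1 and 3, with Ccne1 and Ccne2 at 1.58 and 1.55.

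No single member passed the test over the 6 libraries. In simulated counts that test found 0% of genes set 2-fold apart and 5.05% of those set 4-fold apart. The lack of a call there therefore does not show that a member was unchanged. EdgeR's quasi-likelihood test called 0 of 41 members higher and 0 lower at an adjusted p under 0.05, as it called 0% of all genes, and 0 members had an unadjusted p under 0.05 (1.53% of all genes, higher). DESeq2 called 0 members (0.0446% of all genes), with 1 higher at an unadjusted p under 0.05 (2.31%). Limma voom called 0 members (0% of all genes), with 0 higher at that level (0.513%). With the replicate number as a block, 38 members were above 0 and 3 below, against 46.4% and 53.6% of all genes. EdgeR again called 0 members, with 9 members higher and 0 lower at an unadjusted p under 0.05, against 2.18% and 1.36% of all genes. DESeq2 with the block called 0 (0.178% of all genes), with 15 higher at an unadjusted p under 0.05, against 3.21% of all genes. In pairs 1 and 3 with the block, edgeR called 1 member higher, Ccne1, and 0 lower, against 0.258% and 0.604% of all genes. There 20 members were higher and 1 lower at an unadjusted p under 0.05, where 5.45% and 7.74% of all genes were. In that comparison 39 of 41 members were higher in KO (48.5% of all genes), with a median log2 fold change of 0.24. In these 4 libraries the late erythroblast sum was 349 and 378 CPM in KO and 228 and 139 CPM in WT, and its part in the result was not tested.

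**Figure D2:**
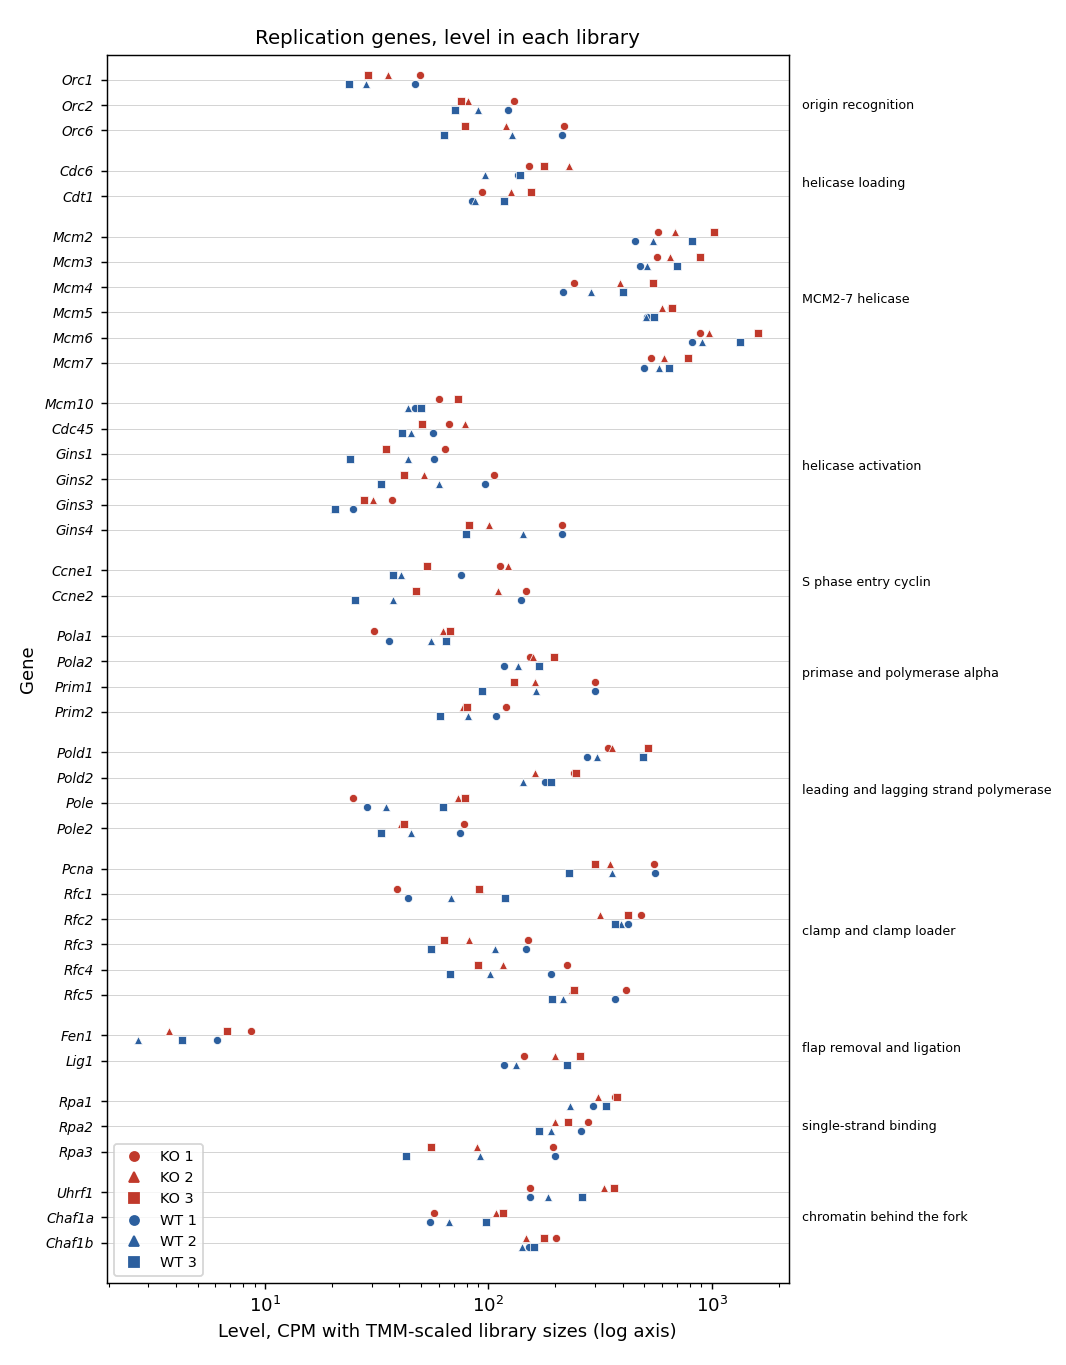
Level of each gene in each library in CPM on a log axis, KO in red on the upper line of each gene and WT in blue on the lower, with circles, triangles and squares for replicates 1, 2 and 3. Red symbols lie to the right of the blue symbol of the same shape for most genes, while in many genes, such as Rpa3 and Prim1, shapes of 1 colour lie further apart than the colours do.

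The promoter sequences of 5 members are shown as examples for the genes described most closely. Ccne1 passed in pairs 1 and 3. In Cdc6, Mcm5, Mcm10 and Gins3 the KO libraries all stood above the WT libraries in CPM, for Cdc6 not by unscaled library totals. These 4 were singled out after their values were seen, and none of them passed a test. Sequences are RefSeq windows of 300 bases (GRCm38.p6), from 250 bases before to 50 bases after the annotated start, written 5′ to 3′ on the strand of the gene. Capitals mark E2F-type words, TTTCCCGC, TTTGGCGC, TTTCGCGC, TTTGCCGC and TTCCCGCC on either strand, which may overlap each other.
Cdc6 (chr11:98907901-98908200, plus strand): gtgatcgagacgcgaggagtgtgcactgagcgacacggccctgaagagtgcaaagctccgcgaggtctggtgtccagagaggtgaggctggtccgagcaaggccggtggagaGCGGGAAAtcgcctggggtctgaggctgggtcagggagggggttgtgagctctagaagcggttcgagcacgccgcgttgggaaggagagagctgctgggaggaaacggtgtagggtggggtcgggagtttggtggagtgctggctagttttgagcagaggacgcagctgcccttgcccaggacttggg
Mcm5 (chr8:75109259-75109558, plus strand): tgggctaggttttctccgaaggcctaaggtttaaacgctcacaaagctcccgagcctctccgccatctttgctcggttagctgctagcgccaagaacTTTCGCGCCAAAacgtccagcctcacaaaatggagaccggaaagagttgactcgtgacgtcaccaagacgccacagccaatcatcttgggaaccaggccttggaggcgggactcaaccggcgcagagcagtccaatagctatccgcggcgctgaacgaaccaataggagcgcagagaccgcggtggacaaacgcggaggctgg
Gins3 (chr8:95633309-95633608, plus strand): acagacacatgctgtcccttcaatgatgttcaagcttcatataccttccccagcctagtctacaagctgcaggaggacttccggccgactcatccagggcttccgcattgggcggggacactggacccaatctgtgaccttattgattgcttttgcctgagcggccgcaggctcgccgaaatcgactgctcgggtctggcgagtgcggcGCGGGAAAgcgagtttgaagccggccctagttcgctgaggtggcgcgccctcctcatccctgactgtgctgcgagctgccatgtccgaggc
Mcm10 (chr2:5012742-5013041, minus strand): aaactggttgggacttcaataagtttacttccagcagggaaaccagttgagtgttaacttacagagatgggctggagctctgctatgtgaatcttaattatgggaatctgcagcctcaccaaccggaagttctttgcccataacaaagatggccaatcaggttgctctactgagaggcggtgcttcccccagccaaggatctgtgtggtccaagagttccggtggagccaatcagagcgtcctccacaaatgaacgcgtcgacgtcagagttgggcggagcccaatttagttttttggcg
Ccne1 (chr7:38107441-38107740, minus strand): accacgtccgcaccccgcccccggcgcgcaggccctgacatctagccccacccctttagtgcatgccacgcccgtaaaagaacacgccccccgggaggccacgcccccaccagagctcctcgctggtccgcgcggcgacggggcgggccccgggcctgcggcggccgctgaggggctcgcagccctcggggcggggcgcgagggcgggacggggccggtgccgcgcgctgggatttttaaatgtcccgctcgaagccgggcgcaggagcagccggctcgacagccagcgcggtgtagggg

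A window was found for 33 of the 41 genes, and 17 of the 33 (51.5%) held at least 1 of these words in at least 1 window. The share was 4.46% over all 27025 genes with a window and 8.35% over the 9397 that also passed the low-count filter. Counted by window, it was 45% of 40 windows of the members and 3.89% of all 32851 windows. Mcm6 and Mcm3, subunits of the helicase, held 3 words each, some overlapping, and Mcm5 held 2 that overlap, starting 153 and 149 bases before its start site. Cdc6 and Gins3 held 1 each, starting 138 and 41 bases upstream of the RefSeq start of the window. In the deposited table these genes start earlier, at 98907801 and 95633453, so that both words lie inside the gene. The windows of Mcm10 and Ccne1 held none of these words. The Mcm10 window ends in tttggcg, the listed word TTTGGCGC without its last base, and the base that follows lies outside the window. The 17 members with a word had a median log2 fold change of 0.26 and the 16 without had 0.24 over the 6 libraries, against 0.23 and 0.27 in pairs 1 and 3. A word is a run of letters and not a measured site.

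Cyclin E, which drives the entry into S phase with its kinase Cdk2, had the highest median log2 fold change of the roles over the 6 libraries, 0.75. The flap nuclease gene Fen1 in pairs 1 and 3, at 0.57 with an SE of 0.33, stood above Ccne1 at 0.54, and Gins3 at 0.51 above Ccne2 at 0.45. Ccne1 (ENSMUSG00000002068, chromosome 7, 38097984 to 38107534) was at 113, 122 and 53.1 CPM in KO replicates 1 to 3 and at 75.5, 40.6 and 37.5 CPM in WT replicates 1 to 3. Each KO library was above the WT library of its number, but KO 3 lay below WT 1, so the groups overlapped. The means were 96.1 ± 37.4 CPM in KO and 51.2 ± 21.1 CPM in WT (SD, n = 3 each), a 1.88-fold difference (log2 fold change 0.91, SE 0.42; adjusted p = 1 in edgeR). In pairs 1 and 3 Ccne1 rose 1.46-fold (log2 fold change 0.54, SE 0.12; adjusted p = 0.0466 in edgeR). This call lay close to the threshold: over 9 alternatives of that comparison the adjusted p ran from 0.0298 to 1, and 3 of the 9 kept the call. Ccne2 was at 148, 110 and 47.4 CPM in KO and at 140, 37.3 and 25.3 CPM in WT. Its replicates spread more than its genotypes did (log2 fold change 0.59, SE 0.68), and the value was 0.20 without WT 3 and 1.70 without WT 1. Pair 2 had the largest differences for both cyclins, 1.58 for Ccne1 and 1.55 for Ccne2, and KO 2 is the library with transcripts of other cells.

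**Figure D3:**
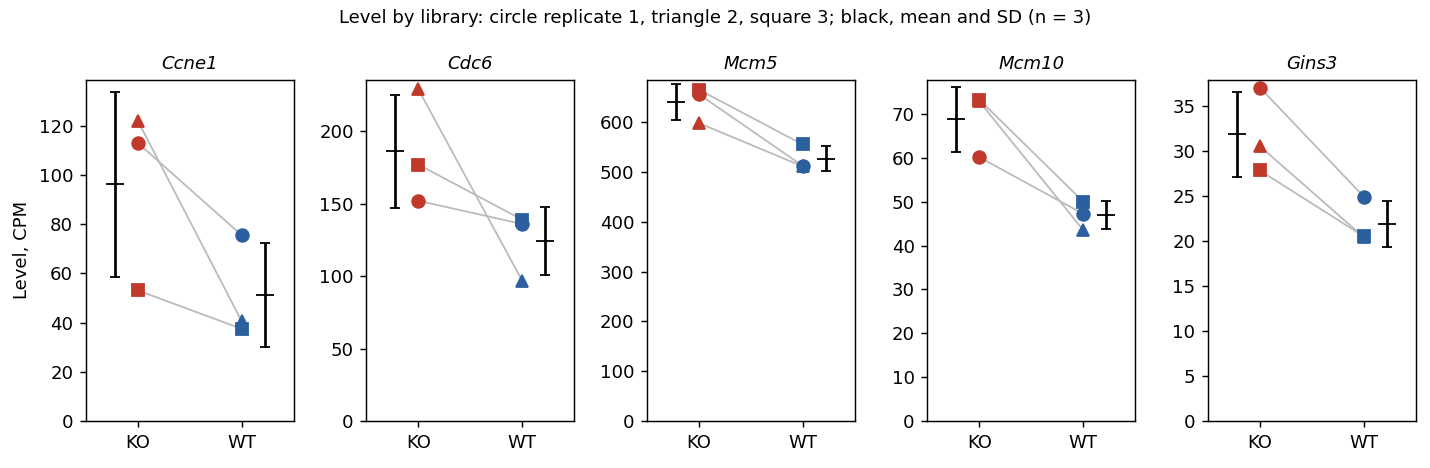
Level in CPM of Ccne1, Cdc6, Mcm5, Mcm10 and Gins3 in KO (red, left) and WT (blue, right) libraries, with grey lines joining libraries of the same number and black bars giving the mean and SD (n = 3). For Cdc6, Mcm5, Mcm10 and Gins3 the lowest KO library is above the highest WT library in CPM, for Cdc6 not by unscaled library totals. For Ccne1 the groups overlap.

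The loading factors Cdc6 and Cdt1, which place the helicase on origins, were higher in KO in 3 of 3 pairs. Cdc6 stood at 152, 229 and 177 CPM in KO and at 136, 96.9 and 139 CPM in WT. The groups did not overlap in CPM, as was the case for 4 members with KO higher (2.27% of all genes) and 0 with KO lower (1.75%). For Cdc6 this rested on the TMM scaling of library sizes. By unscaled library totals KO 1, with 2488 counts of 18105463, lay below WT 3, with 1950 of 13666585. Cdc6 averaged 186 ± 39.3 CPM in KO and 124 ± 23.5 CPM in WT (SD, n = 3 each), 1.5-fold apart (log2 fold change 0.59, SE 0.29; adjusted p = 1 in edgeR). The difference was largest in pair 2, at 1.24 log2 units, against 0.16 and 0.35 in pairs 1 and 3, where the fitted log2 fold change was 0.25 (SE 0.11; adjusted p = 0.353 in edgeR). Cdt1, the partner that geminin restrains, was at 94.2, 126 and 155 CPM in KO and 84.8, 87.5 and 118 CPM in WT (log2 fold change in pairs 1 and 3 of 0.27, SE 0.12; adjusted p = 0.321 in edgeR).

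The origin recognition complex, read here in Orc1, Orc2 and Orc6, had the smallest median log2 fold change of the roles, 0.04 over the 6 libraries. Orc1, its subunit that comes and goes with the cell cycle, was at 49.6, 35.5 and 28.9 CPM in KO and 46.8, 28.2 and 23.8 CPM in WT (log2 fold change 0.21, SE 0.36; adjusted p = 1 in edgeR). Orc6 was at 218, 120 and 78.5 CPM in KO and 213, 128 and 63.4 CPM in WT, with a log2 fold change of 0.16 in pairs 1 and 3 (SE 0.12; adjusted p = 0.64 in edgeR). Orc2 had a log2 fold change of 0.01 (SE 0.33). The subunit genes Orc3, Orc4 and Orc5, not among the 41 members, were at -0.05, -0.06 and 0.02 (SE 0.33, 0.40 and 0.30). For Orc2 and Orc6, replicates of 1 genotype lay further apart than the genotypes did, and pair 2 had KO lower by 0.15 and 0.10 log2 units.

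All 6 subunits of the MCM2-7 helicase, the ring that unwinds the template, were higher in KO in 3 of 3 pairs, with small and even differences. Their summed level was 3466, 3918 and 5521 CPM in KO replicates 1 to 3 and 2971, 3346 and 4469 CPM in WT replicates 1 to 3. Each subunit reached its highest level in KO 3. Log2 fold changes over the 6 libraries ran from 0.17 (Mcm7) to 0.38 (Mcm4), with a median of 0.30, and in pairs 1 and 3 from 0.19 to 0.33. Leaving out KO 3 gave 0.05 for both Mcm2 and Mcm4, and leaving out WT 3 gave 0.61 and 0.64. Mcm5 was the steadiest, at 656, 598 and 665 CPM in KO and 512, 511 and 555 CPM in WT. Its groups did not overlap, with means of 640 ± 36.4 CPM in KO and 526 ± 25.1 CPM in WT (SD, n = 3 each; log2 fold change 0.28, SE 0.25; adjusted p = 1 in edgeR). Mcm2 was at 575, 689 and 1023 CPM in KO and 454, 548 and 820 CPM in WT, so that KO 1 and KO 2 lay below WT 3. Its differences in the 3 pairs were 0.34, 0.33 and 0.32 log2 units (pairs 1 and 3: log2 fold change 0.33, SE 0.09; adjusted p = 0.124 in edgeR). Mcm3 and Mcm4 had pair differences of 0.25 to 0.35 and 0.18 to 0.44. Mcm6 and Mcm7 had 0.12 to 0.26 and 0.07 to 0.28.

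Of the 6 factors that turn the loaded ring into an active helicase, 5 had a log2 fold change above 0 over the 6 libraries (49.3% of all genes). In pairs 1 and 3 it was 6 of 6 (48.5%), with a median of 0.30. Mcm10, which helps the double ring to open, was at 60.1, 72.8 and 73.2 CPM in KO and 47.2, 43.5 and 50 CPM in WT, and the groups did not overlap. It averaged 68.7 ± 7.45 CPM in KO and 46.9 ± 3.25 CPM in WT (SD, n = 3 each), a 1.47-fold difference over the 6 libraries (log2 fold change 0.55, SE 0.25; adjusted p = 1 in edgeR). In pairs 1 and 3 it was 1.36-fold (log2 fold change 0.45, SE 0.13; adjusted p = 0.137 in edgeR). Cdc45 was at 66.8, 78.4 and 50.7 CPM in KO and 56.4, 44.9 and 41.1 CPM in WT, higher in KO in 3 of 3 pairs (log2 fold change 0.46, SE 0.29). The difference was 0.80 log2 units in pair 2, and in pairs 1 and 3 the log2 fold change was 0.27 (SE 0.13).

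The GINS subunits form a complex with 1 copy of each. Gins3 was at 37.0, 30.5 and 27.8 CPM in KO and 24.9, 20.4 and 20.5 CPM in WT, with no overlap and pair differences of 0.57, 0.58 and 0.44 log2 units (log2 fold change 0.54, SE 0.27). Gins1 was at 63.7, 34.7 and 35 CPM in KO and 57.1, 43.7 and 24.0 CPM in WT. Gins2 was at 106, 51.3 and 42.1 CPM in KO and 96.2, 60.0 and 33.1 CPM in WT. Gins4 was at 213, 101 and 82.3 CPM in KO and 214, 143 and 79.6 CPM in WT. For these 3 subunits KO 2 was below WT 2, by 0.33, 0.23 and 0.50 log2 units, and the log2 fold changes were 0.10, 0.07 and -0.14, each with an SE of at least 0.41. Without KO 2, in pairs 1 and 3, the log2 fold changes were 0.34, 0.23 and 0.02 for Gins1, Gins2 and Gins4, against 0.51 for Gins3. The difference between subunits was not tested.

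Genes of primer synthesis had a median log2 fold change of 0.12 over the 6 libraries. Pola2, the regulatory subunit of polymerase alpha, was at 154, 158 and 197 CPM in KO and 118, 136 and 169 CPM in WT, higher in KO in 3 of 3 pairs (log2 fold change in pairs 1 and 3 of 0.30, SE 0.11; adjusted p = 0.239 in edgeR). The catalytic subunit gene Pola1 was at 30.9, 63.0 and 67.7 CPM in KO and 35.9, 55.3 and 64.8 CPM in WT. It was lower in KO in pair 1 and higher in pairs 2 and 3. The primase gene Prim1 was at 301, 162 and 131 CPM in KO and 300, 163 and 94.1 CPM in WT, so that pair 3 alone held a difference of size, 0.48 log2 units.

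Of the polymerases that copy the strands, Pold2, a subunit of polymerase delta, was at 243, 162 and 246 CPM in KO and 179, 143 and 191 CPM in WT. Its log2 fold change in pairs 1 and 3 was 0.40 (SE 0.11; adjusted p = 0.102 in edgeR), second to Ccne1 in p among the members. Pole, the catalytic subunit of polymerase epsilon, was at 24.7, 73.0 and 78.7 CPM in KO and 28.7, 34.9 and 62.9 CPM in WT. Pole was lower in KO in pair 1 by 0.21 log2 units and higher in pairs 2 and 3 by 1.06 and 0.32. Its partner Pole2 was at 77.8, 40.8 and 42.0 CPM in KO and 74.6, 44.9 and 33.1 CPM in WT. Pole, Pold1 and Prim2 encode subunits known to hold an iron-sulfur cluster. Pold1 was at 342, 360 and 520 CPM in KO and 277, 308 and 493 CPM in WT. Prim2, the primase subunit, was at 120, 77.0 and 80.4 CPM in KO and 108, 80.9 and 60.8 CPM in WT. The log2 fold changes of Pole, Pold1 and Prim2 in pairs 1 and 3 were 0.06, 0.19 and 0.27, with SEs of 0.16, 0.10 and 0.12, and over the 6 libraries 0.48, 0.18 and 0.15.

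The sliding clamp gene Pcna was at 553, 352 and 300 CPM in KO and 557, 359 and 231 CPM in WT. KO and WT replicates 1 and 2 were thus within 0.03 log2 units of each other, and pair 3 differed by 0.38. Rfc1, the large subunit of the clamp loader, was the member with KO lower in both pairs 1 and 3, by 0.16 and 0.38 log2 units, at 39.0, 91.4 and 91.2 CPM in KO and 43.5, 67.8 and 119 CPM in WT (log2 fold change in pairs 1 and 3 of -0.28, SE 0.12; adjusted p = 0.332 in edgeR). The small subunits had log2 fold changes of 0.05 (Rfc2), -0.07 (Rfc3), 0.26 (Rfc4) and 0.19 (Rfc5) over the 6 libraries. Rfc4, at 225, 116 and 89.9 CPM in KO and 190, 102 and 67.3 CPM in WT, was higher in KO in 3 of 3 pairs (log2 fold change 0.33 in pairs 1 and 3, SE 0.12; adjusted p = 0.216 in edgeR).

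Lig1, which seals the nicks between lagging strand fragments, was at 145, 199 and 257 CPM in KO and 118, 133 and 225 CPM in WT, higher in KO in 3 of 3 pairs (log2 fold change in pairs 1 and 3 of 0.24, SE 0.11; adjusted p = 0.35 in edgeR). Fen1 was low in all libraries, at 8.62, 3.73 and 6.76 CPM in KO and 6.13, 2.69 and 4.27 CPM in WT, and its log2 fold change of 0.54 had an SE of 0.51 (adjusted p = 1 in edgeR). In GENCODE M21, 84.2% of the exon bases of Fen1 are shared with Tmem258 and Gm10143 on the opposite strand, and the library kit does not mark the strand. Rpa1, the large subunit of the single-strand binding protein, was at 368, 310 and 379 CPM in KO and 293, 233 and 337 CPM in WT (log2 fold change in pairs 1 and 3 of 0.25, SE 0.10; adjusted p = 0.291 in edgeR). Rpa2 had pair differences of 0.11, 0.05 and 0.44 and Rpa3 of -0.03, -0.04 and 0.37.

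Behind the fork, Uhrf1, which brings the maintenance methyltransferase to new DNA, was at 153, 330 and 367 CPM in KO and 154, 185 and 263 CPM in WT. Pairs 2 and 3 differed by 0.84 and 0.48 log2 units and pair 1 by -0.02 (log2 fold change 0.50, SE 0.40; adjusted p = 1 in edgeR). The log2 fold change of Uhrf1 in pairs 1 and 3 was 0.23 (SE 0.12). Chaf1a, the large subunit of chromatin assembly factor 1, was at 56.9, 108 and 116 CPM in KO and 54.6, 67.0 and 97.6 CPM in WT. Chaf1b was at 201, 148 and 177 CPM in KO and 152, 142 and 160 CPM in WT (log2 fold change in pairs 1 and 3 of 0.27, SE 0.11; adjusted p = 0.302 in edgeR). Both were higher in KO in 3 of 3 pairs.

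Per kilobase of the longest annotated coding transcript, mean levels over the 6 libraries spanned from 2.26 CPM per kb (Fen1) to 258 CPM per kb (Pcna). Next to Pcna came the helicase genes Mcm6, Mcm3, Mcm7, Mcm2 and Mcm5 at 250, 209, 206, 203 and 172 CPM per kb, while Mcm4 was at 96.7. At the low end after Fen1 were Pole (7.05), Pola1 (9.90), Gins3 (10.7), Orc1 (11.8) and Mcm10 (11.9 CPM per kb). The GINS subunits ranged over 10.7, 16.6, 39.6 and 103 CPM per kb for Gins3, Gins2, Gins1 and Gins4. Of the exon bases of Fen1 and Gins2, 84.2% and 67.3% are shared with other genes. How reads there were counted is not known, so the per-kb levels and ranks of these genes are uncertain. Among the 6 factors that activate the helicase, Mcm10 and Gins3, whose groups did not overlap, were the lowest per kb.

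The libraries of a number differed from those of another number far more than the genotypes did, and along transcript length. Between replicates 1 and 3 the median absolute difference of the 41 genes was 0.82 log2 units within KO and 0.84 within WT, against 0.25 for KO minus WT averaged over pairs 1 and 3. In 40 of 41 members the sign of replicate 1 minus replicate 3 was the same in KO and WT, and in 32 this difference exceeded the difference of genotypes in both. Of the 20 shortest transcripts, 17 in KO and 16 in WT were higher in replicate 1 than in replicate 3, and of the 21 longest 5 in KO and 5 in WT were. Rpa3, of 670 nt, was 1.81 log2 units higher in KO 1 than in KO 3 and 2.21 units higher in WT 1 than in WT 3. Pole, of 7163 nt, was 1.67 units lower in KO 1 than in KO 3 and 1.13 units lower in WT 1 than in WT 3. Spearman's rho of this difference with length was -0.70 in KO and -0.69 in WT over the 41 genes. Over the 13443 tested genes with a length it was -0.59 and -0.60. These are correlations across genes, which are not independent, and they are given as a description. Among the longer transcripts higher in replicate 1, Ccne2 (3006 nt) and Gins2 (3900 nt) were at 1.64 and 1.33 in KO and at 2.46 and 1.54 in WT. The KO minus WT difference in pairs 1 and 3 had a median of 0.27 for the 20 shortest members and 0.23 for the 21 longest, with KO higher in 20 and 19 of them.

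**Figure D4:**
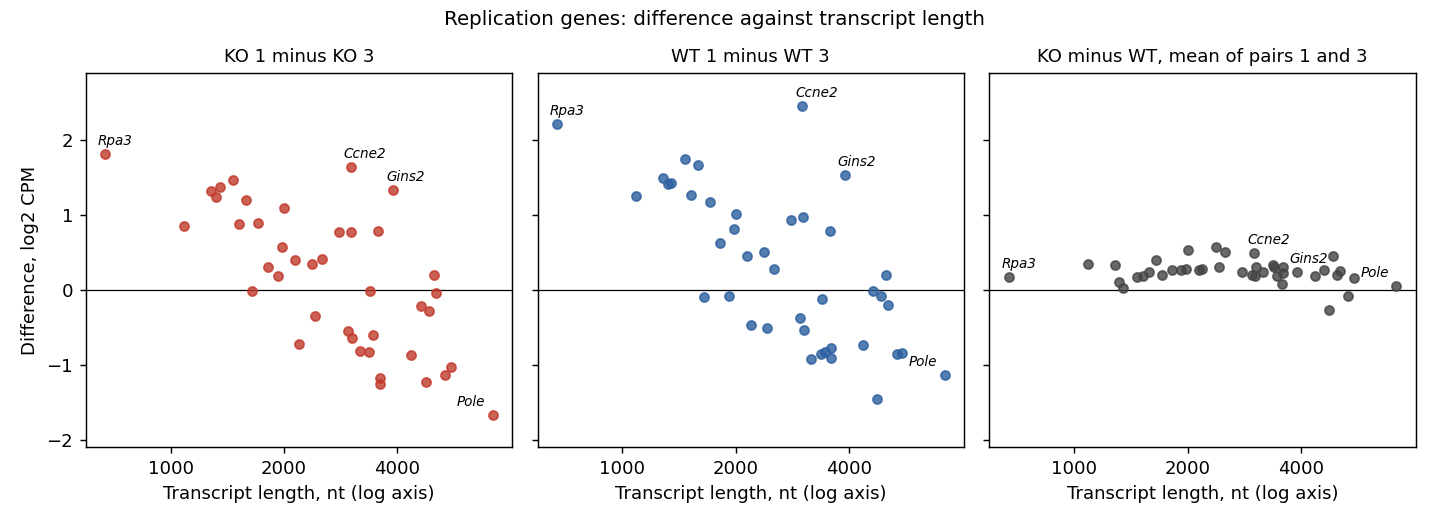
Difference in log2 CPM of the 41 genes against the length of the longest coding transcript in nt (log axis), for KO 1 minus KO 3, WT 1 minus WT 3 and KO minus WT averaged over pairs 1 and 3, on 1 vertical scale. The first panels fall with length, from Rpa3 at 1.81 and 2.21 to Pole at -1.67 and -1.13, while the third stays in a narrow band mostly above 0.

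Exon bases shared with other genes limit the counts of 14 members, for which the share was at least 5%. Beside Fen1 the largest shares were 67.3% for Gins2, whose exons overlap those of Gse1, 52.5% for Chaf1a, with Ubxn6, and 29.8% for Orc2, with Nif3l1. The 27 members with a share under 5% were higher in KO in 24 cases, with a median log2 fold change of 0.27. The 14 others were higher in 14 cases, with a median of 0.20.

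Other genes of the origin and fork, from a list of 45, were also mostly higher in KO. Of these 35 had a log2 fold change above 0 and 10 below (median 0.19), where 49.3% and 50.7% of all genes did. EdgeR called 0 over the 6 libraries (0% of all genes), and 1 was higher at an unadjusted p under 0.05 (1.53%). In pairs 1 and 3 edgeR called 2 of the 45 higher and 0 lower, against 0.258% and 0.604% of all genes. There 33 of 45 were above 0 (48.5% of all genes), with a median of 0.12. The cyclin A gene Ccna2, which acts in S phase and mitosis, was at 112, 206 and 72.6 CPM in KO and 70.6, 52.0 and 46.6 CPM in WT, and rose in pairs 1 and 3 (log2 fold change 0.65, SE 0.12; adjusted p = 0.0153 in edgeR). The histone chaperone gene Asf1b was at 193, 169 and 134 CPM in KO and 138, 87.5 and 89.5 CPM in WT, and rose there as well (log2 fold change 0.53, SE 0.11; adjusted p = 0.0422 in edgeR). Hells, a chromatin remodeller, was at 57.1, 56.4 and 84.3 CPM in KO and 44.8, 46.6 and 49.5 CPM in WT (log2 fold change in pairs 1 and 3 of 0.56, SE 0.14; adjusted p = 0.0737 in edgeR). Recql4, a helicase of origin firing, was at 9.54, 26.7 and 10.2 CPM in KO and 8.02, 6.13 and 8.33 CPM in WT, highest in KO 2 (log2 fold change 1.05, SE 0.48; adjusted p = 1 in edgeR).

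Genes of E2F factors and of the pocket proteins that hold them in check gave no call among 13 genes in either comparison. All genes gave 0% over the 6 libraries, and 0.258% higher and 0.604% lower in pairs 1 and 3. At an unadjusted p under 0.05 in edgeR, 1 was higher and 0 lower over the 6 libraries (1.53% and 0.208% of all genes). In pairs 1 and 3 it was 0 and 1 (5.45% and 7.74%). KO was the higher library for 4, 10 and 7 of the 13 genes in pairs 1, 2 and 3. Among all genes tested it was higher for 48.2%, 49.9% and 48.9%. E2f1 was at 69.8, 99.4 and 97.7 CPM in KO and 73.0, 67.0 and 68.2 CPM in WT (log2 fold change 0.36, SE 0.26; adjusted p = 1 in edgeR). E2f4 was at 193, 242 and 202 CPM in KO and 151, 150 and 206 CPM in WT (log2 fold change 0.33, SE 0.27; adjusted p = 1 in edgeR). E2f2 was at 93.0 CPM in KO 2, against 7.22 and 12.3 CPM in KO 1 and KO 3 and 6.90 to 8.82 CPM in WT (log2 fold change 2.25, SE 0.90; adjusted p = 1 in edgeR). In pairs 1 and 3 the log2 fold changes of E2f1, E2f4 and E2f2 were 0.22, 0.16 and 0.34 (SE 0.14, 0.12 and 0.32). The pocket protein genes Rb1 and Rbl2 had log2 fold changes of -0.40 and -0.36 in pairs 1 and 3 (SE 0.19 and 0.14; adjusted p = 0.386 and 0.278 in edgeR). Over the 6 libraries Rb1 was in the other direction, at 0.23 (SE 0.58), and Rbl2 was at -0.29 (SE 0.41). The third pocket protein gene, Rbl1, was at 0.15 in both comparisons (SE 0.26 over the 6 libraries and 0.14 in pairs 1 and 3).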

How the data were processed

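Per the labels' protocols, SMART-Seq v4 amplified the RNA of sorted MEPs, and Nextera XT served for the libraries. The authors deposited whole-number read counts per Ensembl gene and library, unscaled. Per the submitters' processing notes, FastQC 0.11.5, STAR 2.5.3a and edgeR were used, with builds GRCm38.p3 and GRCh38.p3 named. The read counter, its strand setting and its treatment of reads with several positions were not given in the sources used here, so counts of overlapping genes are uncertain. Coordinates are those of the deposited table, and 39 of 41 spans were identical in GENCODE M21 (GRCm38), from which exon overlaps and the longest coding transcript were taken.

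Low-count genes were dropped by filterByExpr in edgeR 4.0.16 (minimum count 10, minimum total 15), which kept 13453 of 52459 genes, and 13572 for pairs 1 and 3. Library sizes were scaled by TMM, and CPM use these sizes. Genotypes were compared on the whole table by edgeR's quasi-likelihood test (legacy method, this version's default), two-sided, with Benjamini-Hochberg adjustment over all genes and a threshold of 0.05. For log2 CPM the prior count was 2. Each fold change sets KO over WT. The SE is the log2 fold change divided by the square root of its F statistic. Pooled mice make each library a biological sample per the series' design text, and n counts libraries. A floor of 3 counts corresponds to 0.131 to 0.224 CPM.

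Replicate numbers were taken to pair the libraries because the log2 CPM of same-numbered libraries departed together from their group means, with correlations across genes of 0.53, 0.16 and 0.63 for numbers 1, 2 and 3, each over 0.1. Over the 41 members alone they were 0.93, -0.023 and 0.95. What a number marks is not in the labels. The fit of pairs 1 and 3 with the replicate number as a block has 1 residual degree of freedom, beside 14.5 prior degrees. Tested on simulated counts of 13148 genes, that fit found 54.4% of 103 genes set 2-fold apart and 83.7% of 86 set 4-fold apart. It made 17 false calls. On 13138 genes the fit of 6 libraries found 0% and 5.05%, and made 0 false calls. The false calls of the pairs 1 and 3 fit were a larger share of its calls than the adjusted p threshold allows. The calls of Ccne1, Ccna2 and Asf1b rest on that fit and are less certain than their adjusted p values state.

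The members, gene lists and the pairs 1 and 3 comparison were chosen with earlier results of these data known. Each member is given a value. An adjusted p, in at least 1 comparison, is given for members that passed a test and for those of smallest p in their role in either comparison. The same holds for genes of the further lists that passed or were among the 3 of smallest p. Alternatives were DESeq2 1.42.0, limma 3.58.1 voom, other scalings and filters, the block, and leaving out libraries. R 4.3.3 was used.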

Additional observations from a re-analysis of the deposited data

How the results depend on the processing

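Of the 41 members, 21 kept their direction over the 6 libraries in all 16 alternatives and 20 did not. Without KO replicate 1 the direction turned for 14 members and without WT replicate 3 for 11. The count of members with KO higher then fell to 26 and 29, against 38, and over the libraries left out in turn it ran from 26 to 39, with a median log2 fold change of 0.17 to 0.33. Leaving out each library in turn gave log2 fold changes of -0.26 to 0.39 for Gins1, -0.44 to 0.51 for Gins2, -0.68 to 0.24 for Gins4, -0.14 to 0.44 for Mcm6, -0.01 to 0.27 for Mcm7, -0.04 to 0.54 for Orc1, -0.28 to 0.24 for Orc2, -0.45 to 0.53 for Orc6, -0.24 to 0.44 for Pcna and -0.16 to 0.32 for Pola1. They were -0.04 to 0.48 for Pold1, -0.30 to 0.45 for Pole2, -0.35 to 0.62 for Prim1, -0.09 to 0.38 for Prim2, -0.35 to 0.41 for Rfc1, -0.10 to 0.20 for Rfc2, -0.51 to 0.28 for Rfc3, -0.22 to 0.76 for Rfc4, -0.12 to 0.53 for Rfc5 and -0.62 to 0.75 for Rpa3. Orc2 was at -0.01 with library totals, -0.02 with upper quartile scaling and 0.00 without a filter, and Rpa3 at -0.01 with upper quartile scaling. Without KO replicate 2, 39 members were higher in KO and the median was 0.30. In pairs 1 and 3 the direction turned for Gins4 alone, at -0.02 with library totals and 0.00 without a filter. Pair 1 alone gave 34 members higher (median 0.16) and pair 3 alone 40 (median 0.32), an alternative added after the data were seen, and pair 2, outside that comparison, 29 (median 0.22). Of the 21 members that kept their direction, 14 moved by over 1.5 times with a library left out, among them Ccne2 (0.20 to 1.70), Mcm2 (0.05 to 0.61), Mcm4 (0.05 to 0.64) and Pole (0.20 to 0.89).

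Over the 6 libraries DESeq2 called 4 genes higher and 2 lower in KO, and with the block 17 and 7, none of them members, against 0 in edgeR. The replicate block in edgeR left the count at 0 and changed no call of a member. In pairs 1 and 3 the 35 genes higher and 82 lower became 20 and 44 with RLE scaling, 6 and 16 with library totals and 10 and 21 with upper quartile scaling. They became 72 and 124 with limma voom, and 77 and 149 with the other quasi-likelihood method of edgeR. Without a filter 143 were lower, and with no replicate block 0 and 0 passed. Ccne1 lost its call with RLE scaling (adjusted p = 0.0745 in edgeR), library totals (0.169), upper quartile scaling (0.15), no filter (0.066), DESeq2 (0.115) and no replicate block (1), which left 0 members called. Its log2 fold change stayed between 0.51 and 0.55. Of the 45 other origin and fork genes, 2 called became 1 with RLE scaling and 0 with library totals, upper quartile scaling or no block. The cause of these changes was not tested. The lowest count of a member was 39 (Fen1, WT replicate 2), above the floor of 3 counts.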
